A study of Mus musculus with 6 samples.

Results

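Hepatic transcripts of 10 ER chaperone genes were examined: Hspa5, Hsp90b1, Hyou1, Dnajb11, Dnajc3, Sdf2l1, Creld2, Manf, Pdia4 and Pdia6. They were taken by gene symbol from a table of 55491 rows, and each symbol matched 1 row. All 10 passed the filter of a mean of at least 0.5 FPKM (fragments per kilobase of transcript, scaled to the mapped fragments of each library) and were among the 13943 genes tested. RNA-seq was performed on whole liver from 3 Chrna2fl/fl mice (control livers a, b and c) and 3 Chrna2fl/fl;AlbCre mice (mutant livers a, b and c). Both genotypes carried the floxed Chrna2 alleles, and only the mutant mice carried Cre under the albumin promoter, which acts in hepatocytes. The study describes the knockout as restricted to hepatocytes, and loss of the gene by cell type was not measured here. Per the study's methods, all mice were 7 to 10 weeks old when they started a high fat diet (HFD, 60% of calories from fat) that lasted 4 weeks, and all were injected with CCl4 (0.5 μl per gram of body weight, 2 injections a week) late in that feeding period. Controls of conditional knockouts were floxed littermates housed together. Unchallenged mice were not analysed here, so the values compare genotypes under the challenge and do not show what the challenge itself did. The comparison addresses how loss of hepatocyte CHRNA2, a subunit of the nicotinic acetylcholine receptor, relates to ER stress genes in this model of MASH (metabolic dysfunction-associated steatohepatitis).

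The ER folds secreted and membrane proteins, and hepatocytes secrete most plasma proteins. When unfolded proteins build up, 3 sensors in the ER membrane start the unfolded protein response (UPR). ATF6 is cut in the Golgi and IRE1, encoded by Ern1, splices Xbp1 mRNA; both routes yield transcription factors that raise chaperone genes. PERK, encoded by Eif2ak3, lowers translation and favors ATF4. ATF6 and spliced XBP1 are known to act through a promoter element called ERSE, which consists of a CCAAT box and a CCACG box held at a fixed distance.

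Before the levels, the promoters are shown, because 5 of the 8 that could be examined carry an exact ERSE. RefSeq windows of GRCm38.p6 from 250 bases before to 50 bases after the start site were held for 8 of the 10 genes, and those of Hyou1 and Manf were not analysed here. An exact ERSE (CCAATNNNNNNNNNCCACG, either strand) was found in 5 of the 8, namely Hspa5, Hsp90b1, Dnajc3, Pdia6 and Creld2, and in 39 of all 32851 windows (0.119%). The related ERSE-II (ATTGGNCCACG) was found in Dnajb11, and in 12 of all windows (0.0365%). The XBP1-associated UPRE (TGACGTGG) was in none of the 8 and in 222 of all windows (0.676%). The CCAAT box alone and the CCACG box alone, which both lie within the ERSE, were present in all 8, but also in 37.4% and 32.8% of all windows. The ERSE was first described in promoters of ER chaperones, Hspa5 among them, so its presence here is a description of known family members. Pdia4 and Sdf2l1 had CCAAT boxes but no exact ERSE or ERSE-II in these letters.

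In GRCm38 the genes lie as follows, introns included: Hspa5 at chr2:34771970-34777547, Hsp90b1 at chr10:86690209-86705509, Hyou1 at chr9:44379490-44392369, Dnajb11 at chr16:22857845-22879634, Dnajc3 at chr14:118937976-118981697, Sdf2l1 at chr16:17130138-17132383, Creld2 at chr15:88819646-88826683, Manf at chr9:106838312-106891979, Pdia4 at chr6:47796141-47813430 and Pdia6 at chr12:17266545-17284770. The stretches that hold the matches are given 5′ to 3′ on the strand of the gene, with up to 30 bases on either side of an ERSE and with the outer 5 bases of each end of a match in capitals. On the gene's reverse strand a match reads CGTGG, then 9 bases, then ATTGG, as in Creld2 and in the second match of Hsp90b1. The stretches lie at chr2:34771995-34772073 (plus strand, Hspa5), chr10:86705503-86705686 (minus strand, Hsp90b1), chr14:118937797-118937875 (plus strand, Dnajc3), chr12:17266461-17266539 (plus strand, Pdia6), chr15:88819490-88819568 (plus strand, Creld2) and chr16:22857852-22857862 (plus strand, Dnajb11).
Hspa5: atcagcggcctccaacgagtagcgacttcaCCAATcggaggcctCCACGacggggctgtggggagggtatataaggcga
Hsp90b1: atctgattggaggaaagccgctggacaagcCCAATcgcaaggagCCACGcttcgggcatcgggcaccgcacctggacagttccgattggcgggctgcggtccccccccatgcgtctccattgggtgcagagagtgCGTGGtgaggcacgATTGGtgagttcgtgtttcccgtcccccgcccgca
Dnajc3: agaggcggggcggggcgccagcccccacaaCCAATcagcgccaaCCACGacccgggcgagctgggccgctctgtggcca
Pdia6: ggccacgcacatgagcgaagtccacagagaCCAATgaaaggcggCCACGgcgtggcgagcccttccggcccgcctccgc
Creld2: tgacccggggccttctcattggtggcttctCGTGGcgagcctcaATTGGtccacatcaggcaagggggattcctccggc
Dnajb11: ATTGGcCCACG
The ERSE of Hspa5 began 65 bases before the RefSeq start site, those of Pdia6, Dnajc3 and Creld2 began 98, 105 and 126 bases before it, and the pair in Hsp90b1 began 212 and 107 bases before it. In Dnajb11 the ERSE-II lay just after the start site.

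**Figure D1:**
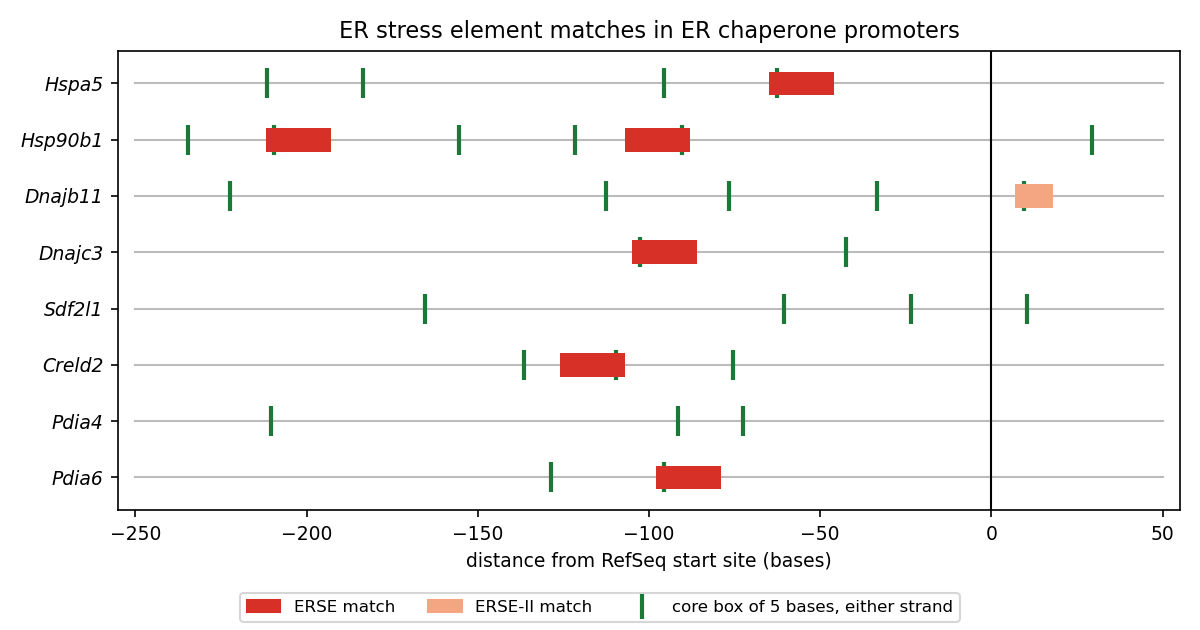
Position of motif matches in the promoters of 8 ER chaperone genes, with distance from the RefSeq start site in bases on the horizontal axis and 1 gene per line. Filled boxes mark ERSE matches (5 genes) and the ERSE-II match (Dnajb11), and ticks mark the CCAAT box on either strand, which all 8 genes hold.

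Genotype and library depth were checked first. Chrna2 stood at 1.24, 1.20 and 2.64 FPKM in the control livers (order a, b, c) and 0.36, 0.03 and 0.32 FPKM in the mutant livers, and the Cre transcript was listed at 0 in control livers and at 2.76 to 4.34 FPKM in mutant livers. Depth, estimated from the spacing of low FPKM, was 17.3 to 18.1 M fragments in control and 9.18 to 9.41 M fragments in mutant libraries, so sequencing depth and genotype cannot be told apart. For a transcript of 1 kb, a single fragment corresponds to at most 0.109 FPKM, far below the lowest value of any of the 10 genes, 18.0 FPKM. Hepatocyte identity was clear in all livers, with Alb at 24361 to 46354 FPKM. In whole tissue, more cells of a type and more RNA per cell cannot be told apart.

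All 10 ER chaperone genes had higher transcript levels in mutant livers, with every mutant liver above every control liver for each of them, and none passed the test adjusted over all genes. The mean FPKM was 1.77 to 3.41 times that of controls, and the median log2 fold change was 1.39, against 0.19 for all tested genes. Fold changes are given with their standard errors (SE) on the log2(FPKM + 0.1) scale and include this general shift of 0.19. An adjusted p under 0.05 from limma was reached by 0 of 10 genes and by 0% of the 13943 genes tested. At an unadjusted p under 0.05, 10 of 10 were higher, as were 13.2% of all tested genes. Of all tested genes, 18.7% had every mutant liver above every control liver, and 70.3% had a fold change above 0. In the other direction, 3.02% were lower at that threshold and 4.34% had every mutant liver below every control liver. This balance depended on scaling. With median-ratio scaling of the libraries, an unadjusted p under 0.05 was reached by 6.08% of all genes with a higher and 7.8% with a lower level, 8.98% lay above and 10.8% below without overlap, and the median log2 fold change of the 10 was 1.19. A fold change at or above the median of the 10 was found in 2.36% of tested genes. With 3 livers against 3, an exact two-sided permutation test cannot give a p below 0.1, and it gave 0.1 for each of the 10 genes.

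**Figure D2:**
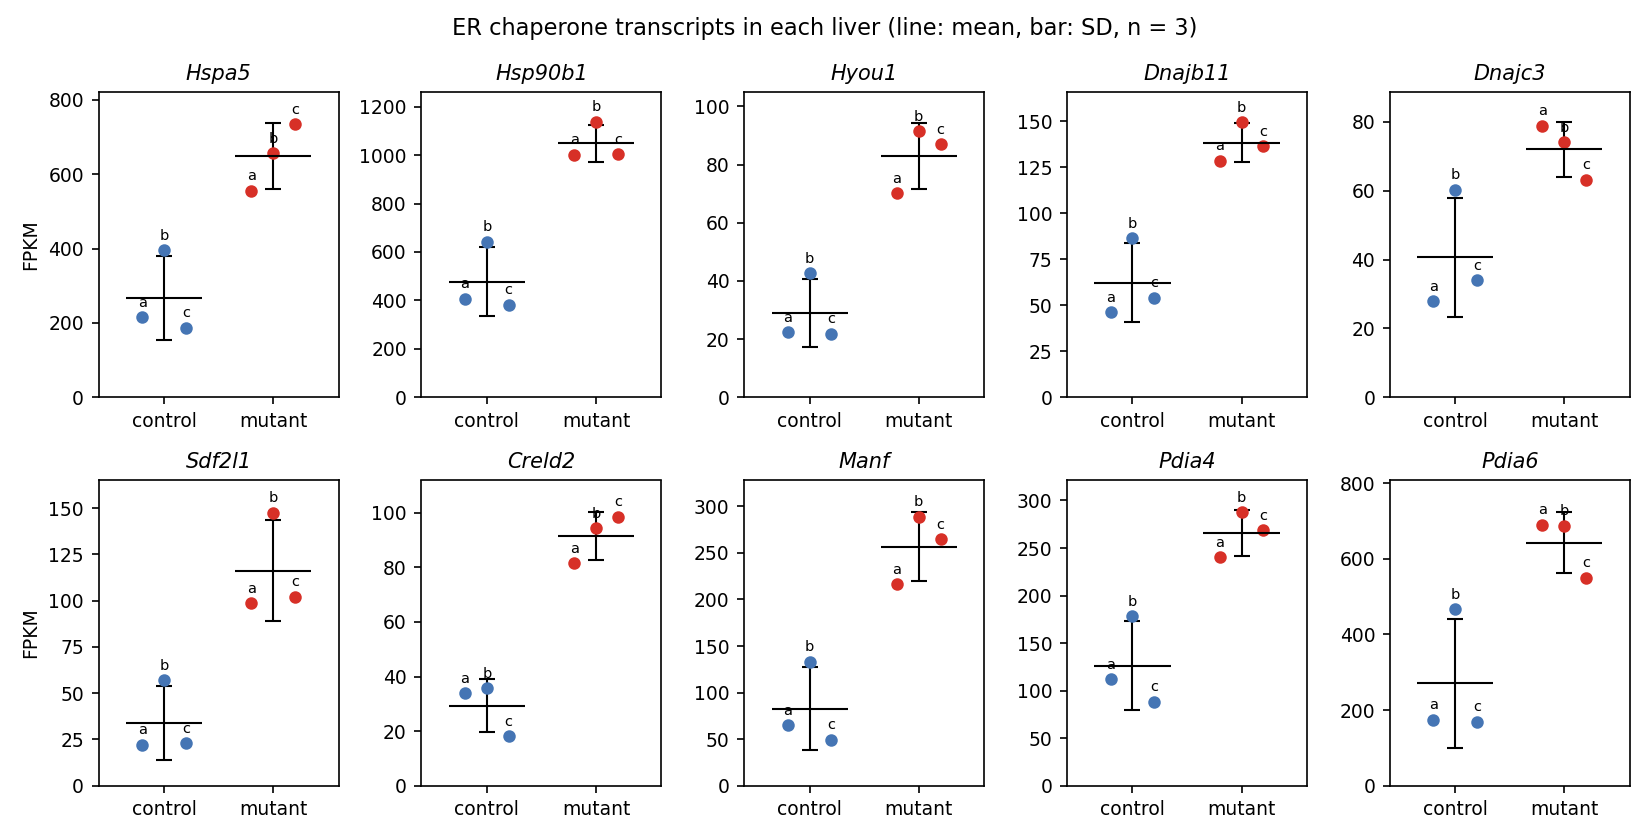
FPKM of each ER chaperone gene (vertical axes from 0) in control livers (blue) and mutant livers (red), with letters naming the liver, lines for the mean and bars for the SD (n = 3). In every panel the mutant livers lie above the control livers, and control liver b is the highest control.

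The HSP70 and HSP90 class chaperones come first. Hspa5 encodes BiP, the HSP70 of the ER, which binds unfolded chains and holds the UPR sensors inactive. Giving livers in the order a, b, c throughout, it was at 215, 396 and 187 FPKM in control and 556, 657 and 734 FPKM in mutant livers. The lowest mutant value was 1.40 times the highest control value. The log2 fold change was 1.36 (SE 0.28, adjusted p = 0.245 from limma). Hsp90b1 encodes GRP94, the HSP90 of the ER, which matures integrins, Toll-like receptors and IGFs. It was the most abundant of the 10 in each liver, at 407, 643 and 383 FPKM in control and 1002, 1138 and 1005 FPKM in mutant livers. The mutant livers lay close together here, and control livers a and c sat well below control liver b. Its log2 fold change was 1.17 (SE 0.21, adjusted p = 0.245). Hyou1 encodes GRP170, which acts as a nucleotide exchange factor for BiP. It was at 22.4, 42.6 and 21.9 FPKM in control and 70.1, 91.5 and 87.1 FPKM in mutant livers. All mutant livers were at least 1.65 times the highest control liver, and the log2 fold change was 1.58 (SE 0.27, adjusted p = 0.245).

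Cofactors of BiP differed in how clearly the groups were separated. Dnajb11 (ERdj3) is a J-domain protein that hands unfolded substrates to BiP. It was at 46.2, 86.6 and 54.1 FPKM in control and 129, 150 and 137 FPKM in mutant livers, for a log2 difference of 1.20 (SE 0.23, adjusted p = 0.245). Sdf2l1 forms a complex with Dnajb11 and, in the mouse liver, is known as a gene that responds to ER stress after feeding. It was at 22.2, 57.1 and 22.8 FPKM in control and 98.7, 147 and 102 FPKM in mutant livers. This was the highest fold of the 10, with a log2 fold change of 1.89 (SE 0.37, adjusted p = 0.245). Dnajc3 (p58IPK) is a J-domain cochaperone of BiP that was first known as an inhibitor of PERK and PKR. It was at 27.8, 60.3 and 34.0 FPKM in control and 78.8, 74.0 and 63.2 FPKM in mutant livers. Its groups nearly met, since mutant liver c was 1.05 times control liver b. The log2 fold change of 0.90 (SE 0.28, adjusted p = 0.256) was the lowest of the 10, and with median-ratio scaling of the libraries the groups of Dnajc3 overlapped, at 59.3 FPKM in control liver b and 58.9 FPKM in mutant liver c.

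The oxidoreductases Pdia4 (ERp72) and Pdia6 (P5) form and rearrange disulfide bonds, and Pdia6 is also known to bind IRE1. Pdia4 was at 112, 178 and 88.4 FPKM in control and 241, 288 and 269 FPKM in mutant livers, with a log2 fold change of 1.13 (SE 0.25, adjusted p = 0.245). Pdia6 was at 175, 467 and 169 FPKM in control and 691, 688 and 550.0 FPKM in mutant livers. Control liver b stood out most for this gene, at 2.72 times the mean of control livers a and c and closer to the mutant livers than to the other controls. The SE of Pdia6 was accordingly the highest of the 10 (log2 fold change 1.41, SE 0.38, adjusted p = 0.255).

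Manf and Creld2 encode small proteins of the ER that are known to be released from stressed cells. Manf stabilises BiP with its bound substrates, and was at 64.9, 133 and 49.3 FPKM in control and 216, 289 and 265 FPKM in mutant livers. Its log2 fold change was 1.76 (SE 0.35, adjusted p = 0.245). Creld2, a cysteine-rich protein with EGF-like domains, was at 33.9, 35.7 and 18.0 FPKM in control and 81.5, 94.4 and 98.6 FPKM in mutant livers. Its groups were separated by the widest margin of the 10, with the lowest mutant liver at 2.28 times the highest control liver. Its log2 fold change was 1.70 (SE 0.26, adjusted p = 0.243), and control liver b was only 1.38 times the mean of the other controls. The annotated loci of Hsp90b1, Dnajb11, Manf and Pdia6 overlap genes on the opposite strand. On its own strand Manf overlaps Rbm15b, Hsp90b1 overlaps Gm15344 and Gm25745, and Pdia4 overlaps Mir704. Whether counting used strand was not stated, so reads could be shared between these 5 genes and their neighbours.

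**Figure D3:**
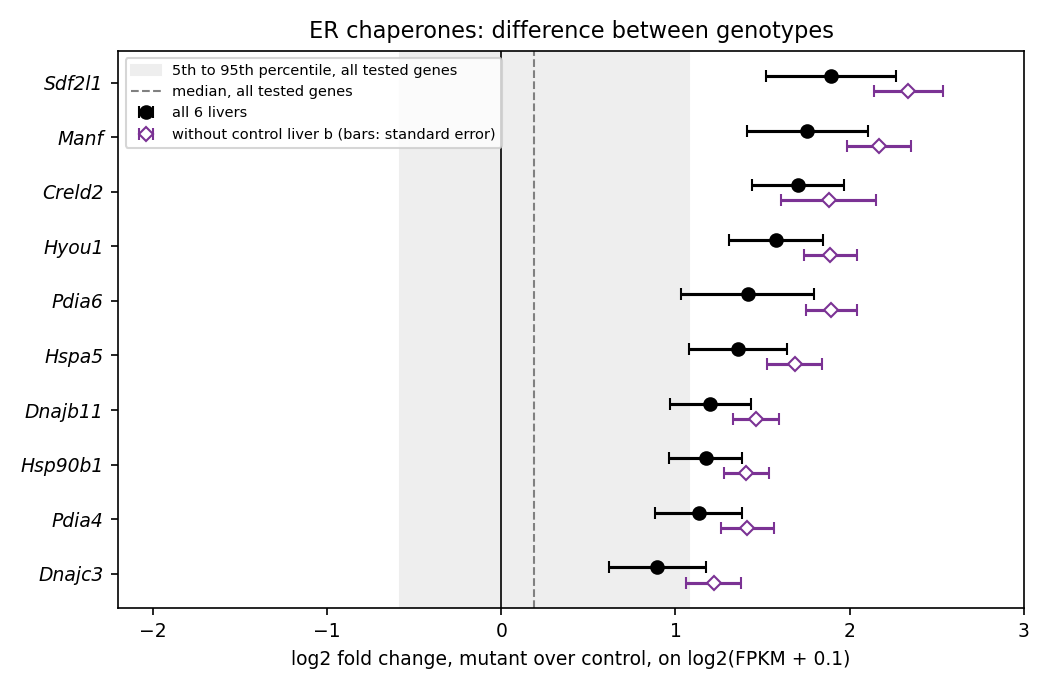
Log2 fold change of each ER chaperone gene, mutant over control, on the log2(FPKM + 0.1) scale, with all 6 livers (filled) and without control liver b (open), and bars for the standard error from limma. The shaded band spans the 5th to 95th percentile of all tested genes, and 9 of the 10 genes lie above it with all 6 livers.

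Control liver b was the highest control liver for 10 of 10 genes, as it was for 50.1% of all tested genes, at a median of 1.94 times the mean of control livers a and c (1.10 times for all tested genes). Control liver c was the lowest control for 7 of the 10 genes (46.4% of all tested genes) and control liver a for 3. Without control liver b, 8 of 10 genes passed an adjusted p under 0.05 from limma, as did 39 of all 13943 genes. The exceptions were Dnajc3 (adjusted p = 0.0535) and Creld2 (adjusted p = 0.0551). The adjusted p of the other 8 was 0.0327 to 0.0409, and the median log2 fold change of the 10 became 1.78. Leaving out any other liver gave 0 of 10. Without control liver c, 9 of 10 were higher at an unadjusted p under 0.05, the exception being Dnajc3. In that fit 7.51% of all tested genes were higher at the same threshold. The SE of Creld2 was 0.27 without control liver b but 0.14 without control liver c, its lowest control. Among mutant livers, liver a was the lowest for 8 of 10 genes, and liver c for Dnajc3 and Pdia6.

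Summed as TPM (transcript abundance, FPKM rescaled to a common sum per library), the 10 genes made up 1395, 2565 and 1224 TPM in control and 3888, 4410 and 4058 TPM in mutant livers. The ER chaperones thus took 0.122% to 0.257% of all transcripts in control livers and 0.389% to 0.441% in mutant livers. The mean was 1728 ± 730 TPM (SD, n = 3) in control and 4119 ± 266 TPM (SD, n = 3) in mutant livers, a ratio of 2.38. Without Hspa5 the ratio of the means was 2.37. The shares of single chaperones in this sum are described next, and shares of a common sum are not independent of each other. Sdf2l1 took 1.97% to 2.72% of the summed TPM in control and 3.08% to 4.08% in mutant livers. Manf took 4.80% to 6.35% and 6.83% to 7.99%, and Hyou1 took 1.99% to 2.13% and 2.22% to 2.63%. These shares did not overlap between genotypes and were higher in mutant livers. The share of Pdia4 was lower there, at 7.61% to 8.12% against 8.48% to 9.94%. The other 6 genes had overlapping shares, Hspa5 with 18.2% to 19.1% in control and 17.6% to 22.2% in mutant livers. The differences in share were not tested, and no rate of such separation was computed for other genes, so a changed mix is not established.

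**Figure D4:**
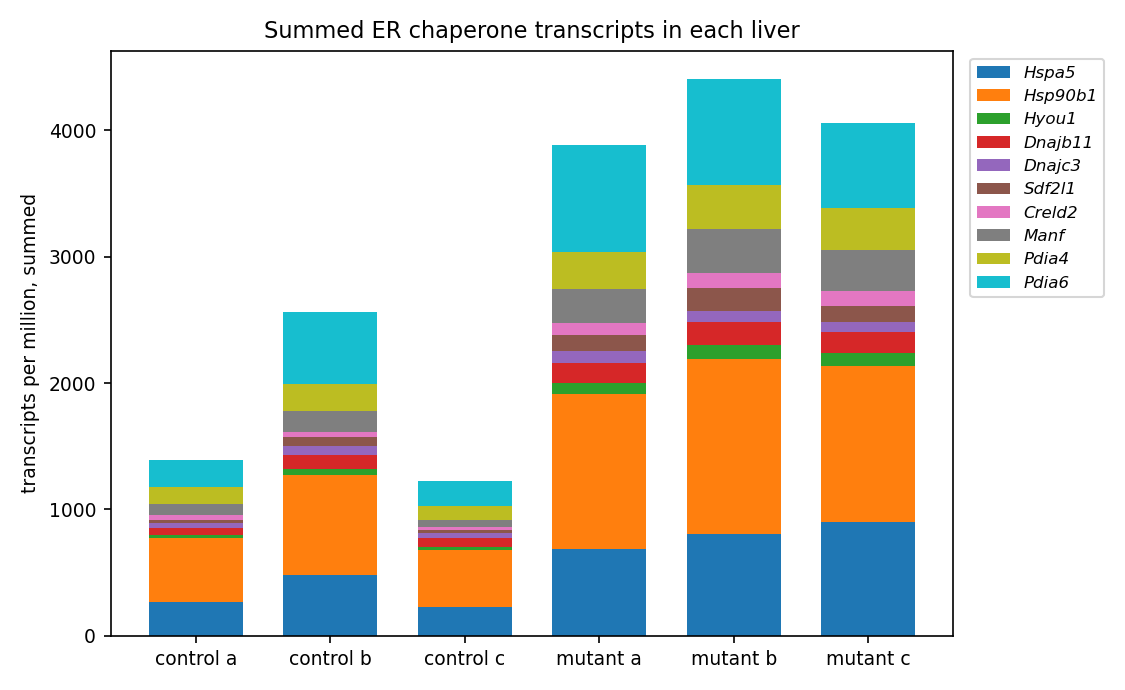
Summed TPM of the 10 ER chaperone genes in each liver (bars from 0), divided by gene. Control livers reach 1224 to 2565 TPM and mutant livers 3888 to 4410 TPM, with Hsp90b1, Hspa5 and Pdia6 as the largest parts of every bar.

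Other folding factors of the ER had a lower median fold change than the 10 genes, and their range overlapped that of the 10. Of 21 tested, 21 had a fold change above 0 (70.3% of all tested genes), and 18 were higher at an unadjusted p under 0.05 (13.2%). Every mutant liver was above every control liver for 19 of them (18.7% of all tested genes). An adjusted p under 0.05 was reached by 0, and the median log2 fold change was 0.64. With median-ratio scaling, 12 were higher at an unadjusted p under 0.05 (6.08% of all genes) and 14 had every mutant liver above every control liver (8.98% of all genes). Without control liver b, 3 passed an adjusted p under 0.05 from limma, namely Calr (0.0495), Pdia3 (0.0409) and Hspa13 (0.0417). Dnajc10 (ERdj5), a reductase with a J domain, had the highest log2 fold change of this list at 1.25, above those of Hsp90b1, Dnajb11, Pdia4 and Dnajc3, and Hspa13, an HSP70 relative of the ER, had 1.09. Both were named after their values were seen. Calr and Canx encode calreticulin and calnexin, lectins that retain unfolded glycoproteins. Calr, whose promoter also holds an ERSE, was at 428, 898 and 484 FPKM in control and 1123, 1375 and 1070 FPKM in mutant livers (log2 fold change 1.05, SE 0.28, adjusted p = 0.255). Canx, also with an ERSE, was at 145, 246 and 181 FPKM in control and 286, 268 and 264 FPKM in mutant livers (log2 fold change 0.55, SE 0.20, adjusted p = 0.284). Both showed the high control liver b. Pdia3, the oxidoreductase that works with both lectins, had a log2 fold change of 1.09 and P4hb, protein disulfide isomerase itself, of 0.85. Dnajb9, a J-domain protein known as a target of XBP1, was at 21.2, 25.1 and 18.9 FPKM in control and 29.1, 39.2 and 49.1 FPKM in mutant livers (log2 fold change 0.82). For Sil1, the other nucleotide exchange factor of BiP, the log2 fold change was 0.48. Many luminal chaperones are returned to the ER by KDEL receptors, of which Kdelr1 was at 55.9 and 69.7 FPKM, Kdelr2 at 40.1 and 57.0 FPKM and Kdelr3 at 1.49 and 2.29 FPKM (control and mutant means). At an unadjusted p under 0.05, 1 of these 3 was higher (Kdelr2, log2 fold change 0.51, adjusted p = 0.255), and with median-ratio scaling 0 were.

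The genes that encode the UPR sensors and their transcription factors differed less. Of 11 tested, 3 had a higher and 1 a lower level with an unadjusted p below 0.05, against 13.2% and 3.02% of all tested genes. The median log2 fold change of the 11 was 0.26, and 0 passed an adjusted p under 0.05. With median-ratio scaling, 1 was higher (Atf4) and 1 lower (Crebrf) at the unadjusted threshold, against 6.08% and 7.8% of all genes. Eif2ak3 then no longer reached the unadjusted threshold. Atf6 was at 8.65, 10.2 and 8.59 FPKM in control and 10.2, 10.8 and 11.9 FPKM in mutant livers (log2 fold change 0.26, adjusted p = 0.389). Ern1 was at 8.89, 8.58 and 11.4 FPKM in control and 12.7, 8.88 and 10.2 FPKM in mutant livers, and its groups overlapped. Xbp1 was at 59.5, 75.1 and 148 FPKM in control and 105, 94.6 and 85.6 FPKM in mutant livers, also overlapping. The log2 fold changes of Ern1 (0.13) and Xbp1 (0.12) turned to -0.06 and -0.08 with median-ratio scaling, and that of Ern1 also to -0.05 with quantile normalization. Gene-level FPKM does not separate spliced from unspliced Xbp1, and cleavage of ATF6 leaves no trace in it, so activity of both factors was not measured. On the PERK side, Eif2ak3 was at 4.15, 4.57 and 3.56 FPKM in control and 4.76, 8.06 and 6.31 FPKM in mutant livers (log2 fold change 0.60, adjusted p = 0.285). Atf4 was at 56.0, 56.4 and 47.1 FPKM in control and 67.9, 75.2 and 83.8 FPKM in mutant livers (log2 fold change 0.51, adjusted p = 0.255). Of 11 ATF4 targets tested, 2 were higher at an unadjusted p under 0.05, 1 had groups that did not overlap, and the median log2 fold change was 0.51. Ddit3, which encodes the death-associated factor CHOP, was at 30.4, 29.6 and 11.9 FPKM in control and 19.9, 23.9 and 51.2 FPKM in mutant livers, so that its groups overlapped (log2 fold change 0.39, adjusted p = 0.667).

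Genes of ER-associated degradation, which removes proteins that fail to fold, had a median log2 fold change of 0.47. An unadjusted p below 0.05 from limma was reached by 7 of 13, each higher in mutant livers, against 13.2% of all tested genes. With median-ratio scaling 5 of the 13 were higher at that threshold, against 6.08% of all genes. Sel1l, the scaffold of the HRD1 ligase, had a log2 fold change of 0.47. Herpud1, another part of that complex and a known UPR target, was at 111, 99.4 and 96.4 FPKM in control and 98.1, 78.6 and 104 FPKM in mutant livers, with overlapping groups. Chaperones outside the ER are given for comparison. Of 17 cytosolic chaperones, 6 were higher at an unadjusted p under 0.05, and the median log2 fold change was 0.36. Hsp90aa1, the inducible cytosolic HSP90, was at 104, 171 and 135 FPKM in control and 414, 304 and 252 FPKM in mutant livers (log2 fold change 1.24, SE 0.24, adjusted p = 0.245). Hspa8, the constitutive HSP70, was at 425 and 439 FPKM (control and mutant means) and the heat-inducible Hspa1a at 1.11 and 1.21 FPKM, with log2 fold changes of 0.05 and 0.14 that turned to -0.15 and -0.04 with median-ratio scaling and to -0.02 and -0.19 with quantile normalization. Of 8 mitochondrial chaperones, 0 were higher at an unadjusted p under 0.05, and the median log2 fold change was 0.21. Hspd1 was at 0.22 and Hspa9 at 0.22 on the same log2 scale. With all 6 livers none of these lists had a gene past an adjusted p under 0.05, and differences between the lists were not tested.

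**Figure D5:**
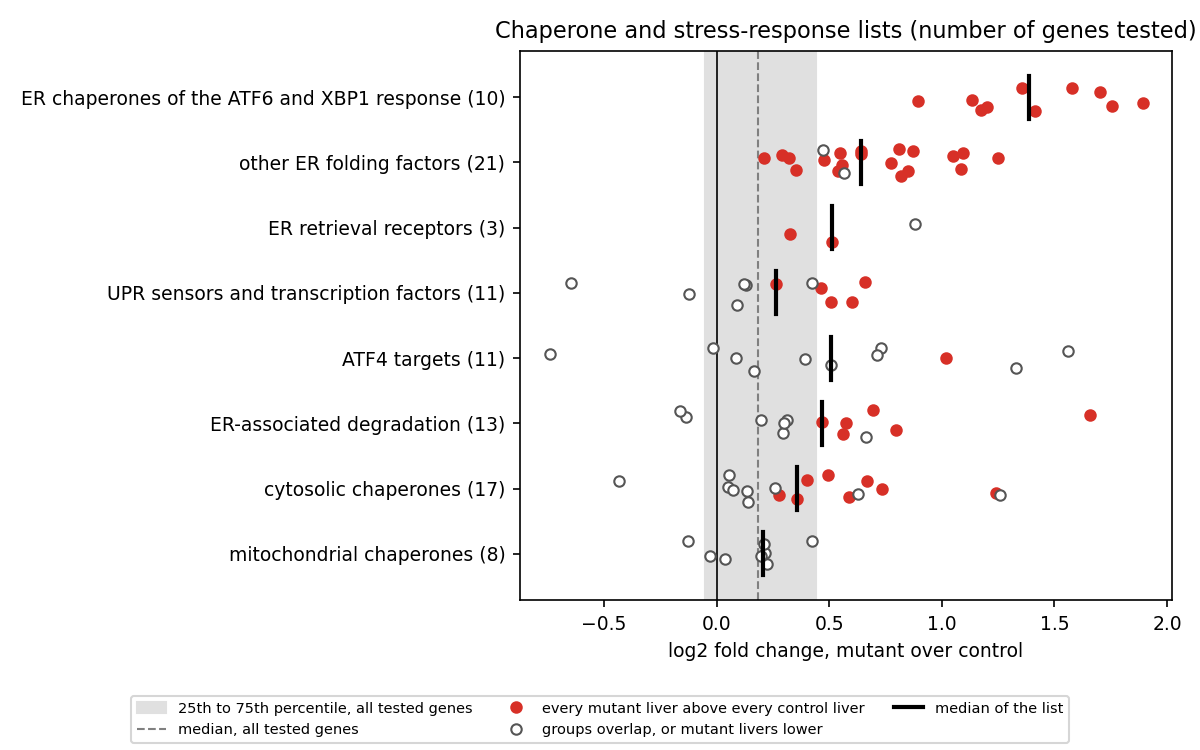
Log2 fold change of each tested gene (points) in 8 lists of chaperone and stress-response genes, with the median of each list (black bar) and the 25th to 75th percentile of all tested genes (band). The ER chaperones center at 1.39, other ER folding factors at 0.64 and mitochondrial chaperones at 0.21.

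Genes with an ERSE other than the 10 were described as well. Of 32 such genes 14 were tested, and 14 of 14 had a fold change above 0, as did 70.3% of all tested genes. The 14 are not all independent, since they include the near copies Xlr3a and Xlr3b, and Alg12, whose window overlaps that of Creld2. An unadjusted p below 0.05 from limma was reached by 7, each higher in mutant livers, as were 13.2% of all tested genes. The median log2 fold change was 0.79, against 0.19 for all tested genes. Counts with median-ratio scaling were not made for this set. Genes of this set that also stood in the lists above were Calr, Canx, Derl3 and Syvn1. Derl3, a derlin of ER-associated degradation, had a log2 fold change of 1.66 (SE 0.31, adjusted p = 0.245) and Syvn1, the HRD1 ligase, of 0.80 (SE 0.22, adjusted p = 0.255). Alg12, a mannosyltransferase of N-glycan assembly, had 1.06 (SE 0.31, adjusted p = 0.255), and its window shares 173 bases with that of Creld2 on the other strand.

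The protein-coding genes whose levels followed the chaperones most closely over the 6 livers were ranked by Pearson correlation with the mean z-score of the 10 genes, among 12209 candidates. This ranking uses the difference between genotypes as well as the high control liver b. The 10 leading genes were Ccr2, Fbxo22, Pspc1, Mesd, Tmed3, Slc7a7, Cpsf3, Slc35b1, Spcs3 and Khsrp, with r from 0.993 to 0.998. Of these, Mesd is an ER chaperone of LDL receptor family proteins, Tmed3 is a cargo receptor of early secretory transport, Slc35b1 exchanges ATP across the ER membrane and Spcs3 is a subunit of the signal peptidase. Tmed3 was at 9.53, 17.0 and 7.84 FPKM in control and 32.1, 38.0 and 34.6 FPKM in mutant livers, for a log2 difference of 1.67 (SE 0.28, adjusted p = 0.245). Slc35b1 was at 27.1, 40.7 and 22.1 FPKM in control and 62.3, 77.1 and 68.6 FPKM in mutant livers, for a log2 difference of 1.25 (SE 0.23, adjusted p = 0.245). Ccr2, a receptor on monocytes, was at 2.39, 4.42 and 2.10 FPKM in control and 6.60, 8.12 and 6.76 FPKM in mutant livers. A close correlation did not require a large difference, since the log2 fold changes of Fbxo22, Cpsf3 and Khsrp were 0.32, 0.39 and 0.33. Those of Mesd, Spcs3, Pspc1 and Slc7a7 were 0.79, 1.05, 0.97 and 0.94.

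Markers of other cells were examined because plasma cells, acinar cells and fibroblasts are rich in ER. Of 9 hepatocyte genes, 0 reached an unadjusted p below 0.05, but with median-ratio scaling 3 were lower at that threshold (Ttr, Serpina1c and Cps1), and their summed level was 63360 to 94042 TPM in control and 63291 to 78601 TPM in mutant livers. Of 12 fibroblast, stellate cell and myofibroblast markers, 4 were higher at that threshold, with a sum of 213, 434 and 91.5 TPM in control and 507, 581 and 254 TPM in mutant livers. Control liver b was thus the highest control for these cells too, while mutant liver c lay below it. Of 12 macrophage markers, 5 were higher, with sums of 335 to 591 TPM in control and 566 to 1116 TPM in mutant livers, and of 9 endothelial markers 3 were higher (55.6 to 93.6 TPM and 91.1 to 144 TPM). Plasma cell and B cell markers summed to 104 to 161 TPM and 158 to 251 TPM, with 1 of 7 tested genes higher, and cholangiocyte markers to 95.5 to 267 TPM and 229 to 540 TPM, with 1 of 6 higher. Of all tested genes, 13.2% were higher at that threshold. With median-ratio scaling 6.08% of all genes were higher. The counts were then 4 for the fibroblast group, 4 for macrophages and 2 for endothelial cells. For plasma and B cells and for cholangiocytes they were 0. Of 10 markers of pancreatic acinar cells 6 were listed at 0 in all livers, and the list summed to at most 2.30 TPM in any liver. The part of these other cells in the chaperone levels was not tested.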

How the data were processed

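RNA was measured in 6 livers, 3 per genotype. Poly(A) RNA went into directional libraries and paired reads of 151 bases. The authors aligned these to GRCm38 with STAR 2.7.8a and deposited gene FPKM from RSEM 1.3.3, rounded to 2 decimals, 1 column per liver. Cutadapt 2.3, FastQC 0.11.8 and MultiQC 1.7 are also listed in the submitters' processing notes. FPKM are not counts, so no count model was used.

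The 13943 genes whose mean over the 6 livers reached 0.5 FPKM were compared with limma 3.58.1 in R 4.3.3 (lmFit, eBayes with a trend) on log2(FPKM + 0.1), with Benjamini-Hochberg adjustment over all of them and a threshold of 0.05. Depth was fitted from single-transcript genes, of which 85.0% to 88.8% of low values were whole fragments within 0.15. Counting error grows as the fragments of a gene become fewer, and mutant libraries held fewer fragments than control libraries. The labels do not say that the livers came from separate litters or days.

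The 10 genes, the lists, the markers and the motifs were chosen with earlier results of these data known, so they are described by counts beside those of all tested genes. Named genes were the 10, those fixed by name in the other lists, list genes past the threshold (none), and the 10 most alike. Others were named after their values were seen. These were Alb, genes with an ERSE, and single list genes that the scaling, a left-out liver or their own values singled out. The hepatocyte symbol Tf had no match. Gene positions came from GENCODE M21 and promoters from RefSeq, both on GRCm38. Protein sequences were not used here. The alternatives were other pseudocounts, filters, scalings and limma settings, the replicate letter as a block, and each liver left out.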

Additional observations from a re-analysis of the deposited data

How the results depend on the processing

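The 10 chaperone genes kept a positive fold change under every alternative, from 0.66 to 2.34 on the log2 scale. With all 6 livers their adjusted p was 0.0572 (array weights) to 0.393, and 0 of 10 passed. The count of genes past an adjusted p under 0.05, which was 0 (2263 at an unadjusted p under 0.05), became 3 with a pseudocount of 1, 2 with no filter, 1 with a mean FPKM of at least 5, 7 without the trend and 4 with array weights. With 1 liver left out it was 0 to 39, and 0 to 8 of the 10 chaperones passed, with a median log2 fold change of 1.15 to 1.78; the upper ends came without control liver b. When the filter was also recomputed without that liver, an alternative added after seeing the data, 111 genes and 9 of 10 chaperones passed and the median stayed at 1.78. Median-ratio scaling left 9 of 10 chaperones with every mutant liver above every control liver (8.98% of all genes) and moved the median of all tested genes from 0.19 to -0.01 and that of the chaperones from 1.39 to 1.19.

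With the replicate letter as a block, 0 genes and 0 of 10 chaperones passed and 10 of 10 were higher at an unadjusted p under 0.05 (12.2% of all genes). Deviations of livers with the same letter correlated at -0.02 (a), 0.06 (b) and 0.02 (c). Control liver c correlated best with mutant liver a (0.04), while control liver b correlated best with mutant liver b. Correlations this low cannot decide whether the letter pairs the livers, and the labels do not say. Causes of these shifts were not tested.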

Other observations

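Of the genes with an ERSE in the RefSeq window that stood in no list, Hnrnpa3, which encodes an RNA-binding protein, had a log2 fold change of 0.50 (standard error 0.17) and Xlr3b one of 1.12 (standard error 0.47), with adjusted p of 0.274 and 0.302 from limma. Xlr3a and Xlr3b are near copies that may share reads. Acacb, which encodes acetyl-CoA carboxylase 2 of fatty acid metabolism, had 0.39 (standard error 0.32, adjusted p = 0.543), and its groups overlapped. These genes were chosen after their values were seen.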
